A study of Parasteatoda tepidariorum with 75 samples.

Results

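Embryos of the common house spider Parasteatoda tepidariorum were compared after parental RNA interference (pRNAi) against the gene of the Hedgehog ligand (Pt-hh) and against that of its receptor Patched (Pt-ptc), which push the pathway in opposite directions. Described here are 5 gene models picked because their read counts were higher after Pt-hh pRNAi, and lower after Pt-ptc pRNAi, at late stage 5: aug3.g10604 (Pt-ed), aug3.g12644, aug3.g22741 (Pt-RTP-B), aug3.g27670 and aug3.g3273. They are 5 of the 27990 gene models counted. The genes were thus chosen by these late stage 5 values, which are given as a description and are no test of the genes. The libraries of early stage 3, of early stage 6 and of the Pt-msx1 females did not enter the choice, and there the genes were tested. The untreated late stage 5 libraries of the Pt-hh and Pt-ptc females entered it as controls, and gfp females entered the study's lists through gene models left out. With every pRNAi library, 12 of the 11556 gene models tested in both late stage 5 comparisons met the choice at an adjusted p under 0.01. Of the 5 genes 4 were among them, a count that restates the choice and is no support for it. Pt-RTP-B was past that threshold after Pt-ptc pRNAi but not after Pt-hh pRNAi. The smallest log2 fold change of the 5 after Pt-hh pRNAi was that of Pt-ed, 0.91. Pt-noto1, at 0.89, also met the choice at that threshold, whereas aug3.g407 (0.74) and Pt-gas1 (0.61) did not.

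Whole sibling embryos of a single female of an Osaka isolate were pooled for each poly(A) RNA library. The pRNAi embryos came from egg sacs that a mother laid on days 13 to 24, counted from the first dsRNA injection, and the untreated embryos came from the egg sac laid by the same mother before injection. The groups used were Pt-hh pRNAi, sampled at early stage 3 and at late stage 5 (2 females, 4 libraries a stage), Pt-ptc pRNAi at the same stages (3 females, 6 libraries a stage) and Pt-msx1 pRNAi, made with the dsRNA Pt-msx1-1, at late stage 5 and at early stage 6 (3 females, 3 libraries a stage). The dsRNA of the jellyfish gene gfp, the negative control, was given to 5 females (6 libraries at early stage 3, 8 at late stage 5 and 2 at early stage 6), and the untreated embryos of all 13 females made up 26 libraries. The untreated egg sac was always the earlier one, so an effect of the dsRNA cannot be told apart from one of egg sac order or of injection within the females of one dsRNA. The gfp females are the measure of both.

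Hedgehog is a secreted ligand. In flies and vertebrates it binds Patched, which otherwise holds the membrane protein Smoothened inactive, and Smoothened in turn sets the activity of the transcription factor Cubitus interruptus (Ci/Gli). In the spider germ disc, Pt-hh is transcribed at the rim, the future anterior side, and the centre of the disc is the future posterior end. Loss of the ligand and loss of the receptor move the pathway in opposite directions, and a level that is higher without the ligand and lower without the receptor is the pattern of a gene kept low by signalling.

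By annotation the 5 genes are of different kinds. Pt-ed (scaffold 1189, 52326 to 186051, plus strand, assembly Ptep_1.0) carries the study's name for echinoid, in Drosophila an immunoglobulin-domain cell adhesion protein, whereas the deposited annotation describes it as roundabout homolog 3, a family of guidance receptors with the same kind of domain. The gene model aug3.g12644 (scaffold 1522, 110330 to 146684, minus strand) is annotated as serine protease 27, an enzyme of the trypsin family. Pt-RTP-B (scaffold 11658, 1 to 5000, minus strand) is annotated as receptor-transporting protein 4-like. In mammals these proteins help receptors reach the cell surface. From transcript evidence the study took this gene model and a partner, aug3.g407, to come from a single gene, so reads of one transcript may be split between both. The partner lies on scaffold 10 (1826769 to 1855286, minus strand). The gene model aug3.g27670 (scaffold 228, 814565 to 828359, minus strand) is uncharacterized. The gene model aug3.g3273 (scaffold 461, 641705 to 658221, minus strand) is annotated as zinc finger protein basonuclin-2-like. Basonuclins are nuclear zinc finger proteins in mammals, so the annotation places this gene with putative regulators and not with effector proteins. A second gene model carries the same locus identifier, and reads of aug3.g3273 may be incomplete for that reason.

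Total counts per library lay between 5961730 and 16400327 (median 9854679). In libraries of the Pt-hh females, untreated and pRNAi, the top 10 gene models held 10.9 to 24.0% of the counts, against 2.9 to 7.3% in those of all other females. All libraries are of whole embryos, in which fewer cells of a type and less RNA per cell cannot be told apart. Levels are given as CPM, counts scaled to library size and then for composition (TMM), and tests set pRNAi against untreated libraries with the female as a block, by the quasi-likelihood test of edgeR, with p-values adjusted over all gene models tested (Benjamini-Hochberg) and a threshold of 0.01. Pt-hh reads were at 2.303 to 3.32 CPM in the Pt-hh pRNAi libraries of late stage 5, against 33.6 and 70.8 CPM in the untreated ones. Pt-ptc reads were not lower in the libraries labelled Pt-ptc pRNAi at late stage 5, at 502 to 704 CPM against 409 to 554 CPM in untreated libraries. At early stage 3 they were lower in all 6 of them than in the untreated library of the same female (41.7 to 75.4 CPM, against 72.5 to 166 CPM). The log2 fold change there was -0.91 ± 0.16 (SE, adjusted p = 0.0227), not called. In its own comparisons the study did find Pt-ptc changed at early stage 3, unlike here, and, as here, did not list it at late stage 5. It proposes that the knockdown raises signalling and with it transcription of Pt-ptc, a target. It cites earlier work with fewer Pt-ptc transcripts seen in the cytoplasm. That account was not tested here. Pt-msx1 reads overlapped between the libraries labelled Pt-msx1 pRNAi and the untreated ones, lower in 2 of 3 females at each stage, and Pt-msx1 was not called at either (late stage 5, 83.0, 117 and 96.8 CPM, against 93.1, 133 and 78.7 CPM in untreated libraries; early stage 6, 201, 129 and 98.1 CPM, against 146, 166 and 125 CPM). The early stage 6 library labelled Pt-msx1 pRNAi of female 1 and the gfp pRNAi library of female 5 at that stage held identical counts in every gene model, so that at least 1 of the 2 columns does not hold the library that its label names. The Pt-msx1 level of 201 CPM, above its untreated library, is from these counts. Results of Pt-msx1 pRNAi at early stage 6 are given with and without both, and for gfp at that stage no fit without them was possible. Values given after Pt-ptc or Pt-msx1 pRNAi are those of the libraries so labelled.

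At late stage 5 the 5 genes separated the pRNAi from the untreated libraries in both experiments. After Pt-hh pRNAi, Pt-ed had 368 and 454 CPM in the egg sacs of female 1 and 356 and 286 CPM in those of female 2, against 198 and 192 CPM in the untreated egg sacs of the same females. In the libraries labelled Pt-ptc pRNAi it had 29.7, 44.96 and 61.7 CPM as the lowest, median and highest of 6, against 94.1, 109 and 82.0 CPM in the untreated ones. No pRNAi library overlapped the untreated ones in either set, and Pt-ed was fitted at 0.91 ± 0.15 on the log2 scale in the Pt-hh females and at -1.08 ± 0.12 in the Pt-ptc females (SE). For the protease gene aug3.g12644, the Pt-hh pRNAi libraries held 560.2 and 574 CPM in female 1 and 543 and 465 CPM in female 2, against 212 and 113 CPM in the untreated libraries. Those labelled Pt-ptc pRNAi held between 81.5 and 102 CPM (median 91.8), against 247, 231 and 214 CPM. The protease gene had the highest CPM of the 5 in all of these libraries except the untreated one of Pt-hh female 2, where Pt-ed was higher, and its log2 fold changes were 1.79 ± 0.17 and -1.32 ± 0.09 (SE).

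The uncharacterized gene aug3.g27670 was among the more abundant of the 5 after Pt-hh pRNAi and among the least abundant after Pt-ptc pRNAi. It stood at 349, 358, 422 and 351 CPM in the Pt-hh pRNAi libraries, against 124 and 95.0 CPM in the untreated libraries of those females. In the libraries labelled Pt-ptc pRNAi it was at 8.40 and 10.7 CPM in female 1, 1.91 and 1.58 CPM in female 2 and 9.22 and 7.82 CPM in female 3, against 26.6, 29.1 and 19.1 CPM in their untreated libraries. The pRNAi libraries of female 2 were the lowest, and the log2 fold changes were 1.78 ± 0.15 in the Pt-hh females and -2.15 ± 0.36 in the Pt-ptc females (SE). The basonuclin-like gene aug3.g3273 had 166, 166, 212 and 195 CPM in the Pt-hh pRNAi libraries, against 105 and 79.3 CPM in the untreated ones. In the libraries labelled Pt-ptc pRNAi it had 33.9 to 47.97 CPM (median 37.7), against 74.7, 96.3 and 91.1 CPM. Its log2 fold changes, 1.01 ± 0.15 and -1.16 ± 0.10 (SE), were close to those of Pt-ed in both experiments.

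Pt-RTP-B was the least abundant of the 5 in CPM and the one with the fewest reads. It had 9.93 and 20.6 CPM in the Pt-hh pRNAi egg sacs of female 1 and 18.7 and 17.4 CPM in those of female 2, against 7.09 and 6.61 CPM in the untreated libraries. In the libraries labelled Pt-ptc pRNAi it was down to 12 and 5 reads in female 1, 6 and 1 reads in female 2 and 6 and 4 reads in female 3, against 26, 40 and 40 reads in the untreated libraries. The fitted log2 fold changes were 1.28 ± 0.28 and -2.58 ± 0.39 (SE) and had the largest SE of the 5 in both experiments. Its partner model aug3.g407, with more reads, had 107, 85, 79, 28, 103 and 64 reads in the libraries labelled Pt-ptc pRNAi, against 718, 1048 and 816 reads in the untreated libraries, a log2 fold change of -3.46. After Pt-hh pRNAi, aug3.g407 had 134, 164, 197 and 245 CPM, against 69.3 and 166 CPM, and here its groups overlapped.

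**Figure D1:**
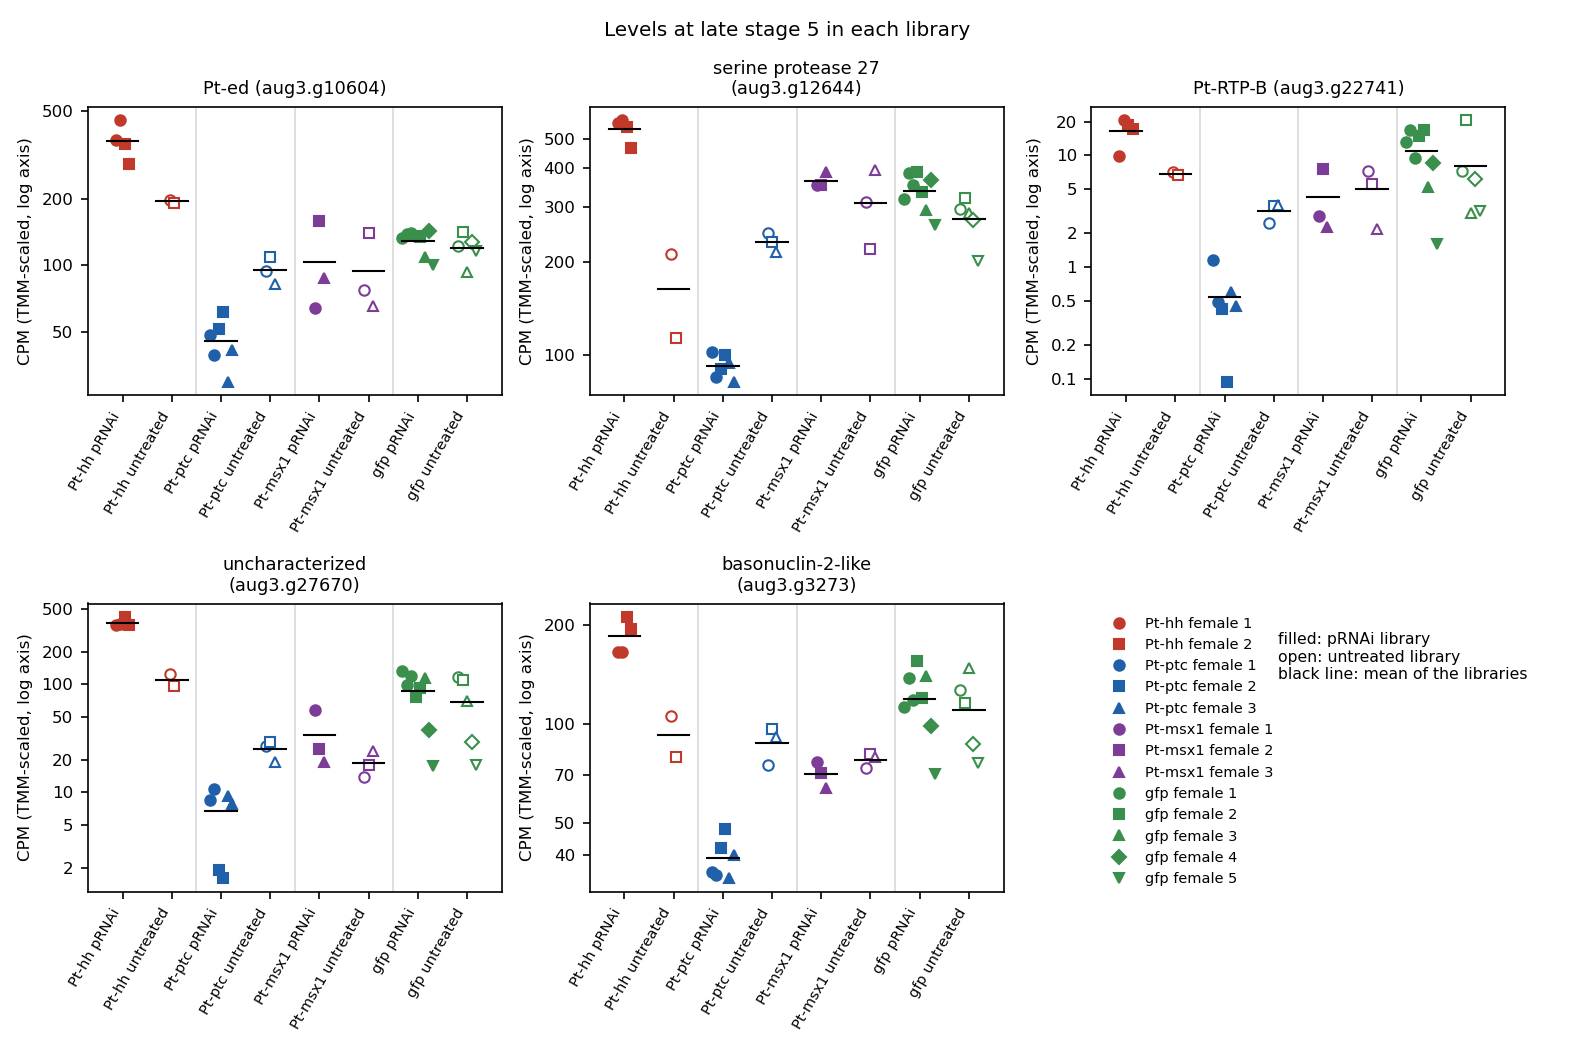
Levels of the 5 genes in every late stage 5 library, in TMM-scaled CPM on a logarithmic axis, with 1 panel a gene and the pRNAi libraries of each dsRNA drawn to the left of the untreated libraries of the same females (each point is 1 library). The Pt-hh pRNAi points lie above, and the points labelled Pt-ptc pRNAi below, the untreated points of their females in all 5 panels, as with aug3.g27670, at 349 to 422 CPM after Pt-hh pRNAi and 1.58 to 10.7 CPM after Pt-ptc pRNAi.

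The lack of overlap was shared by other gene models. Every Pt-hh pRNAi library was above every untreated one in 10.1% of the 12240 gene models tested, and 2.34% were called higher. Every library labelled Pt-ptc pRNAi was below every untreated one in 2.41% of 12195 gene models, and 0.713% were called lower. The median log2 fold change of the 5 genes was 1.28 after Pt-hh pRNAi (0.00 over all gene models) and -1.32 after Pt-ptc pRNAi (0.00 over all gene models), values that the choice of the genes fixes.

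Genes of the pathway and of the disc's regions moved in the same libraries. Of the pathway list of 7 genes, 3 were called higher and 2 lower after Pt-hh pRNAi, and 1 higher and 4 lower after Pt-ptc pRNAi. The list holds Pt-hh, Pt-ptc, Pt-smo and Pt-ci of the pathway, and the genes Pt-msx1, Pt-gas1 and Pt-AP2-A of the disc centre. The study classed Pt-ci and these genes of the centre as kept low by signalling, on these libraries. Among the members of the list Pt-ci, the spider's ci, stood at log2 fold changes of 1.17 and -1.08, Pt-AP2-A at 1.24 and -2.87 and Pt-msx1 at 1.07 and -5.95 after Pt-hh and Pt-ptc pRNAi. The study sorted the genes of the centre and most of those of the intermediate region into classes by their response in these same libraries, so their counts and sums describe that choice. Of 3 genes transcribed at the disc centre (Pt-msx1, Pt-gas1 and Pt-AP2-A), 2 were called higher after Pt-hh pRNAi and 3 lower after Pt-ptc pRNAi. Their summed level was 730 to 931 CPM in Pt-hh pRNAi libraries, against 360 and 447 CPM in untreated ones, and 15.5 to 21.7 CPM in those labelled Pt-ptc pRNAi, against 247 to 333 CPM. Of 3 genes of the disc periphery (Pt-otd, Pt-opa and Pt-lab-A), 3 were called lower after Pt-hh pRNAi and 2 higher after Pt-ptc pRNAi. Their summed level was 51.5 to 73.8 CPM against 497 and 538 CPM, and 909 to 1181 CPM against 454 to 548 CPM. Of 4 genes of the intermediate region (Pt-noto1, Pt-mirr4, Pt-odd-skipped related-B and Pt-rhomboid), 1 was called higher and 1 lower after Pt-hh pRNAi, and 4 lower after Pt-ptc pRNAi, with summed levels of 270 to 416 CPM against 225 and 286 CPM, and of 64.6 to 127 CPM against 247 to 310 CPM. None of these 10 genes was at 0 in a late stage 5 library, and the part of the regions' sizes in the values of the 5 genes was not tested.

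The 2 egg sacs of a female, laid 4 or 5 days apart, differed little at late stage 5. Between them the log2 level of Pt-ed, aug3.g12644, aug3.g27670 and aug3.g3273 moved by at most 0.48, less than any of their fitted log2 fold changes. Pt-RTP-B differed by 1.04 between the egg sacs of Pt-hh female 1, the later one higher, and by -0.98 and -1.08 in Pt-ptc females 1 and 2, the later one lower. In Pt-ptc female 2 that difference rests on 1 read in the later egg sac and 6 in the earlier one.

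At early stage 3 the question was whether the 5 genes already differed after either dsRNA, and none was called. In edgeR's quasi-likelihood test 0 of the 5 genes were called after Pt-hh pRNAi, where 0.34% of 13221 gene models were. Of the 5, 2 had an unadjusted p under 0.05, as 15.1% of the gene models did. DESeq2 and edgeR's likelihood ratio test also called 0. After Pt-ptc pRNAi 0 of 5 were called, where 0.134% of 13384 gene models were, with 0 at an unadjusted p under 0.05 (15.7% of the gene models) and 0 by either other test. Pt-hh itself was called lower after Pt-hh pRNAi at this stage (log2 fold change -2.04, adjusted p = 0.00261).

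The 2 genes with an unadjusted p under 0.05 stood lower, not higher, after Pt-hh pRNAi. The gene aug3.g3273 had 73.4 and 145 CPM in the pRNAi egg sacs of female 1, against 196 CPM in the untreated one, and 57.04 and 62.3 CPM in those of female 2, against 70.9 CPM. All 4 were below the untreated library of their own female, but the groups overlapped, since the untreated libraries of the 2 females differed by more than that. The fitted log2 fold change was -0.57 ± 0.22 (SE, adjusted p = 0.227). The uncharacterized aug3.g27670 had 12.7, 26.3, 21.5 and 26.6 CPM, against 34.8 and 29.5 CPM, with no overlap (every pRNAi library was below every untreated one in 8.18% of gene models) and a log2 fold change of -0.57 ± 0.24 (SE, adjusted p = 0.282). Neither passed the threshold.

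For the remaining 3 genes the pRNAi and untreated libraries overlapped at that stage in both experiments. Pt-ed had 20.7 to 28.8 CPM after Pt-hh pRNAi, against 19.6 and 23.9 CPM, and 12.01 to 17.9 CPM after Pt-ptc pRNAi, against 12.6, 14.3 and 26.0 CPM. The protease gene had 96.0 to 172 CPM after Pt-hh pRNAi, against 99.7 and 173 CPM, and 197 to 305 CPM after Pt-ptc pRNAi, against 192 to 225 CPM, where all 6 were above their own untreated library (log2 fold change 0.23 ± 0.11, SE, adjusted p = 0.329). In gfp females at that stage it was also higher in 6 of 6 libraries (0.275 ± 0.131, SE, adjusted p = 0.217). Its Pt-ptc response minus the gfp response was -0.034. Pt-RTP-B had 5.46 to 9.08 CPM after Pt-hh pRNAi, against 3.95 and 7.53 CPM, and 2.12 to 12.2 CPM after Pt-ptc pRNAi, against 3.22, 3.59 and 11.7 CPM. In the Pt-ptc females, the 2 genes that were lower after Pt-hh pRNAi had log2 fold changes of -0.08 (aug3.g3273) and -0.30 ± 0.15 (SE, aug3.g27670, lower in 6 of 6 libraries, adjusted p = 0.337).

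Set against the gfp response at early stage 3, the Pt-hh response of aug3.g3273 was -0.998 ± 0.29 on the log2 scale (SE, adjusted p = 0.354), with the gfp response itself at 0.44. In this test of the difference 0 of 5 genes were called (0.0276% of 14480 gene models were), 2 with an unadjusted p under 0.05 (7.75% of the gene models), and 0 by DESeq2 or the likelihood ratio test. Without the filter on low counts aug3.g3273 was called, at -0.98 (adjusted p = 0.00297). That setting called 35 higher and 30 lower of 22281 gene models, against 1 higher and 3 lower of 14480 with the filter. The same test for Pt-ptc called 0 of 5 (0% of 14600 gene models) and 0 by the other tests. An unadjusted p under 0.05 was found for 2, aug3.g27670 at -0.45 and aug3.g3273 at -0.51, and for 11.1% of the gene models.

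**Figure D2:**
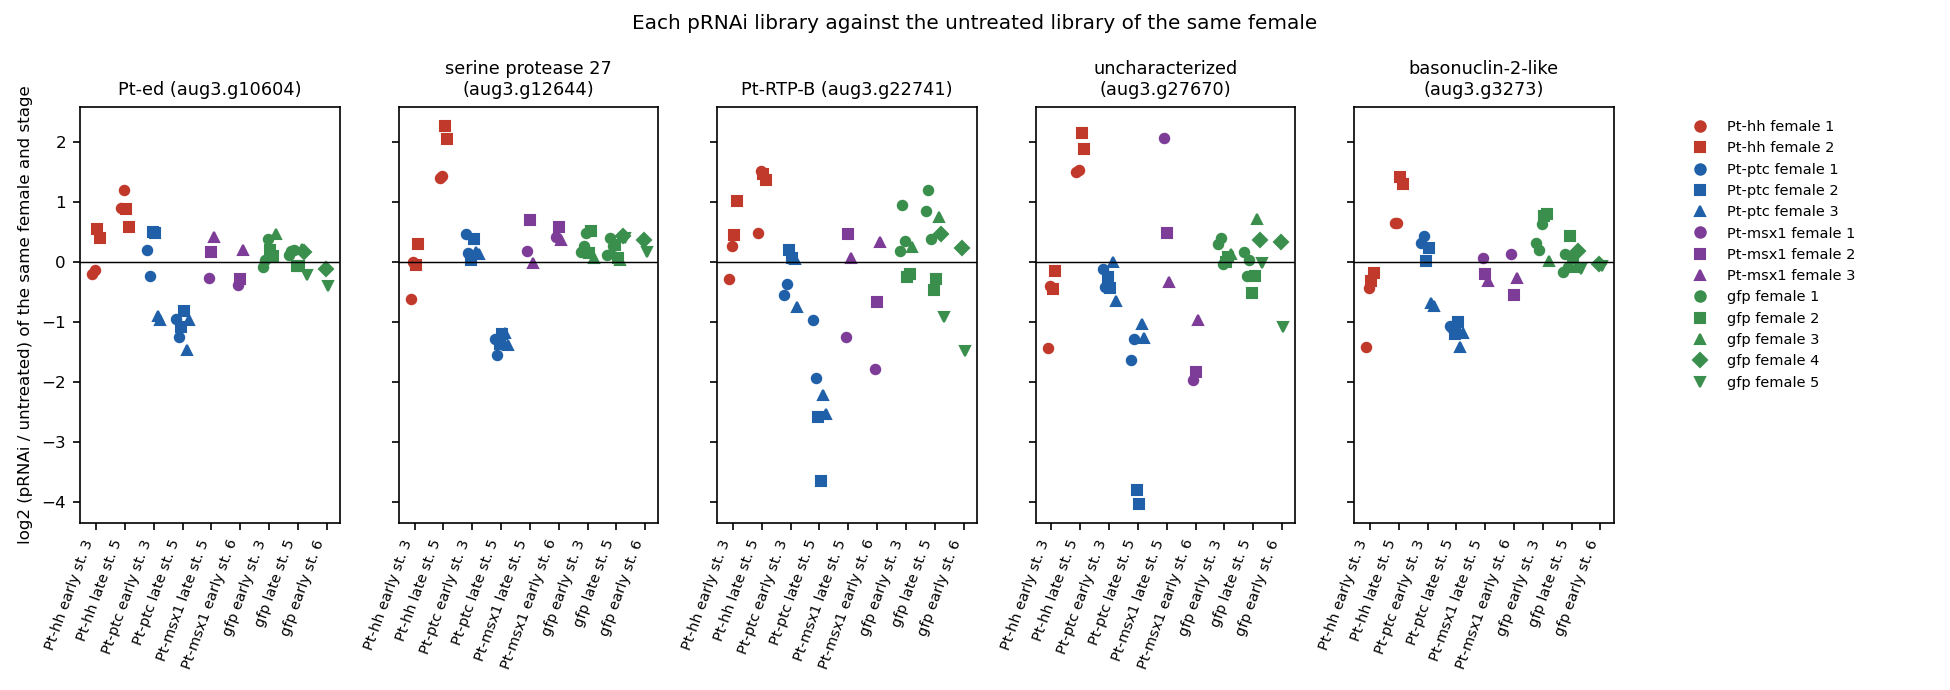
Log2 ratio of each pRNAi library to the untreated library of the same female and stage, with 1 panel a gene and 1 column for each dsRNA and stage (each point is 1 pRNAi library, the line marks no difference). At late stage 5 the Pt-hh points are above 0 and those labelled Pt-ptc below 0 for all 5 genes, at 0.47 or more and at -0.82 or less. At early stage 3 aug3.g27670 lies below 0 after both, aug3.g3273 below 0 after Pt-hh pRNAi and aug3.g12644 above 0 after Pt-ptc pRNAi. The rest of the Pt-hh and Pt-ptc points of that stage straddle 0. In its gfp column aug3.g12644 and aug3.g3273 also lie above 0.

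In gfp females none of the 5 genes was called at any stage: 0 of 5 at early stage 3 (1.26% of 14155 gene models were called, and 1 of the 5 had an unadjusted p under 0.05), 0 of 5 at late stage 5 (0.286% of 12916, and 1) and 0 of 5 at early stage 6 (1.71% of 11960, and 2), and 0 by DESeq2 or the likelihood ratio test at each. An unadjusted p under 0.05 was found for 23.8%, 14% and 12.7% of all gene models at these stages, in that order. The study had left out gene models called in gfp females from its own lists, so the count of 0 of 5 is not independent of the choice. The largest log2 fold change at early stage 3 was that of aug3.g3273, 0.44 ± 0.15 (SE, adjusted p = 0.0868). It had 169 to 252 CPM in 6 gfp pRNAi libraries, against 162, 99.7 and 188 CPM in the untreated ones, and was higher in 6 of 6 than in its own control. The protease gene aug3.g12644 at late stage 5 had 263, 345 and 389 CPM as the lowest, median and highest of 8 gfp pRNAi libraries, against 201 to 322 CPM in 5 untreated ones, and was higher in 8 of 8 than in its own control (log2 fold change 0.27 ± 0.09, SE, adjusted p = 0.175). The early stage 6 count rests on 2 females, of which 1 gave the library with the identical counts, and without that female no test was possible.

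In the libraries labelled Pt-msx1 pRNAi the question was whether the homeobox gene Pt-msx1, itself transcribed at the disc centre, affects these genes. Of the 5 genes, 0 were called at late stage 5, with 0% of 12440 gene models called, 0 of the 5 at an unadjusted p under 0.05 (5.59% of the gene models) and 0 by DESeq2 or the likelihood ratio test. The largest log2 fold change was that of aug3.g27670, 0.76 ± 0.38 (SE, adjusted p = 0.945). It had 57.5, 24.9 and 18.9 CPM in females 1, 2 and 3, against 13.7, 17.7 and 23.8 CPM in their untreated libraries, higher in females 1 and 2 and lower in female 3. With 1 female left out it was at 0.095 (without female 1) to 1.32 (without female 3), and it was called without female 3 (adjusted p = 0.00211). The fit without female 3 called 6 higher and 37 lower of 12219 gene models.

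At early stage 6 aug3.g27670 stood lower in all 3 libraries labelled Pt-msx1 pRNAi. It had 10.7, 18.6 and 22.2 CPM in females 1, 2 and 3, against 42.4, 66.8 and 43.6 CPM in the untreated libraries, with no overlap (every pRNAi library was below every untreated one in 4.14% of gene models). The log2 fold change was -1.58 ± 0.22 (SE, unadjusted p = 0.00044 in edgeR's quasi-likelihood test), but the adjusted p was 0.738, and 0 of the 5 genes were called, as 0% of 12446 gene models were. Another gene, aug3.g12644, also had an unadjusted p under 0.05, as 6.23% of the gene models did. DESeq2 and the likelihood ratio test each called 1 of the 5, aug3.g27670. Of the 12446 gene models, DESeq2 called 0 higher and 4 lower, and the likelihood ratio test 5 higher and 11 lower. The library of female 1 is the one with counts identical to those of a gfp library. Without both, aug3.g27670 was at -1.41 ± 0.18 (SE, adjusted p = 0.0127), with 2 females left, in a fit that called 0.0412% of 12143 gene models and none of the 5. The 3 genes of the disc centre summed to 234 to 379 CPM in the libraries labelled Pt-msx1 pRNAi, against 288 to 411 CPM in untreated ones, and 0 of the 3 were called. The sum of 379 CPM is that of the library with the identical counts, and the other libraries labelled Pt-msx1 pRNAi were at 234 and 297 CPM. The part of these 3 genes in the value of aug3.g27670 was not tested. The study itself listed aug3.g27670 among the genes changed after Pt-msx1 pRNAi at early stage 6, at an FDR under 0.01. By in situ hybridization it found the expression of aug3.g27670 reduced in the disc centre of late stage 5 Pt-msx1 pRNAi embryos, a measure by region and not of whole embryos.

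At early stage 6 the test of the Pt-msx1 response minus the gfp response gave aug3.g27670 a log2 value of -1.30 ± 0.46 (SE, adjusted p = 1), and -1.75 ± 0.29 (SE, adjusted p = 0.0488) without the identical libraries. Here 0 of 5 were called (0% of 12574 gene models), 1 at an unadjusted p under 0.05 (2.69% of the gene models), and 0 by the other tests. The same test at late stage 5 also called 0 of 5 (0% of 13231), with 0 at an unadjusted p under 0.05 (4.7% of the gene models) and 0 by the other tests. Between the stages, the response of aug3.g27670 differed by -2.34 ± 0.54 on the log2 scale (SE, adjusted p = 1), and by -2.16 ± 0.57 without the identical libraries (SE, adjusted p = 1). In that test 0 of 5 were called (0% of 12798), with 1 at an unadjusted p under 0.05 (1.28% of the gene models), 1 by DESeq2 (adjusted p under 0.01 for aug3.g27670) and 0 by the likelihood ratio test. Over all 12798 gene models DESeq2 called 0 higher and 1 lower. In the 2 gfp females sampled at early stage 6, aug3.g27670 had 64.3 and 10.7 CPM, against 51.1 and 23.0 CPM in their untreated libraries, so the gfp libraries moved in both directions, and the lower one is the library with the identical counts.

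**Figure D3:**
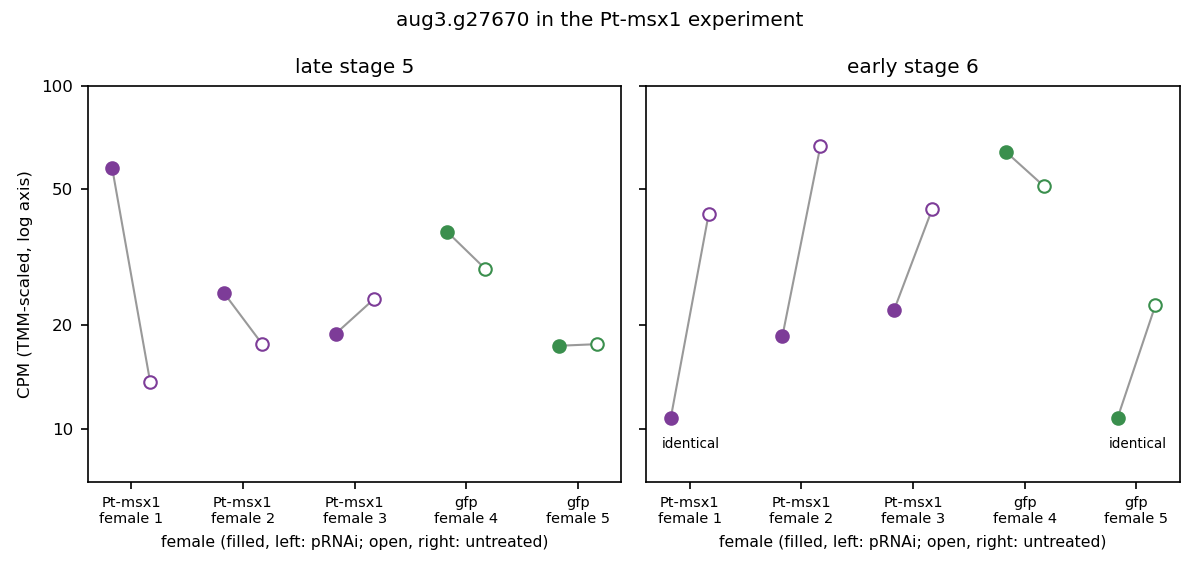
Level of aug3.g27670 in the females injected with Pt-msx1 or gfp dsRNA, at late stage 5 and at early stage 6, in TMM-scaled CPM on a logarithmic axis (filled points, pRNAi, left of open points, untreated, of the same female; lines join them). At early stage 6 the 3 libraries labelled Pt-msx1 pRNAi lie at 10.7 to 22.2 CPM, below the untreated ones at 42.4 to 66.8 CPM, and the 2 libraries with identical counts are marked.

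The other 4 genes were not called in these libraries by any of the 3 tests. At early stage 6 the protease gene had 200.3, 288 and 347 CPM, against 151, 192 and 269 CPM, higher in 3 of 3 than in the untreated library of the same female (log2 fold change 0.47 ± 0.11, SE, adjusted p = 0.738), and without the identical libraries it was at 0.48 ± 0.11 (SE, adjusted p = 0.128). In the gfp females it was also higher in 2 of 2, of which 1 is the library with the identical counts, at 0.28 ± 0.11 (SE, adjusted p = 0.206). Pt-RTP-B had 2.19, 7.59 and 4.97 CPM, against 8.07, 12.2 and 3.93 CPM, lower in 2 of the 3 females (-0.72 ± 0.42, SE, adjusted p = 0.743), and without the identical libraries its value was -0.27 ± 0.27 (SE). Pt-ed was at -0.15 ± 0.14 with all 3 females and at -0.04 ± 0.12 without the identical libraries (SE). The gene aug3.g3273 was at -0.21 ± 0.16 with all 3 and at -0.41 ± 0.12 without them (SE, unadjusted p = 0.00669 in edgeR's quasi-likelihood test, adjusted p = 0.273). With all libraries the median of the 5 genes was -0.21 against 0.00 over all gene models.

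In untreated embryos the 5 genes did not follow 1 course. Pt-ed rose steeply: its lowest, median and highest levels were 12.6, 21.8 and 26.0 CPM in 8 libraries of early stage 3, 65.7, 116 and 198 CPM in 13 of late stage 5 and 129, 162 and 227 CPM in 5 of early stage 6. It was higher at late stage 5 than at early stage 3 in 8 of 8 females, by 2.64 ± 0.18 on the log2 scale (SE, adjusted p = 7.42e-09), and again higher at early stage 6 than at late stage 5, by 0.74 ± 0.10 (SE, adjusted p = 0.00173, 5 of 5 females). At the first step the stages did not overlap, as in 18.5% of gene models. At the first step 5 of the 8 females are Pt-hh and Pt-ptc females, whose untreated late stage 5 libraries were controls in the choice, and in the 3 gfp females alone Pt-ed was at 2.38 ± 0.18 (SE, adjusted p = 5.44e-06). The second step rests on gfp and Pt-msx1 females only. That step of Pt-ed was not called without Pt-msx1 female 3 (0.68 to 0.81 over the females left out in turn) or without the block for the female (0.71).

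The uncharacterized aug3.g27670 rose at the second step. It was at 23.0, 43.6 and 66.8 CPM (lowest, median and highest) at early stage 6, against 13.7, 29.1 and 124 CPM at late stage 5, where the highest libraries came from females not sampled at early stage 6. Within females it was higher at early stage 6 in 5 of 5, by 1.12 ± 0.19 (SE, adjusted p = 0.00451), and without gfp female 4, Pt-msx1 female 2 or Pt-msx1 female 3 it was not called (0.92 to 1.31 over the females left out in turn), nor without the block (1.15). Between late stage 5 and early stage 3 its log2 fold change was 0.96 ± 0.35 (SE, adjusted p = 0.0242): it was higher in 6 of 8 females and lower in Pt-ptc females 2 and 3 (29.1 and 19.1 CPM, against 38.3 and 44.8 CPM). It was called in the 3 gfp females alone, at 1.68, and without Pt-ptc female 2 or Pt-ptc female 3, where it reached 1.25 at most.

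The other 3 genes were not called at either step by edgeR's quasi-likelihood test. At the first step DESeq2 called 2 of the 5, aug3.g3273 (adjusted p = 0.0014) besides Pt-ed, and the likelihood ratio test called 4, all but Pt-RTP-B. Most of the 14721 gene models were also called there, 4537 higher and 5174 lower by DESeq2. The likelihood ratio test called 4991 of them higher and 5321 lower. At the second step both tests called 3 of the 5, with aug3.g12644 (adjusted p = 0.00288 in DESeq2 and 0.00224 in the likelihood ratio test) besides Pt-ed and aug3.g27670. Of the 12689 gene models, DESeq2 called 297 higher and 148 lower, and the likelihood ratio test 426 higher and 266 lower. In CPM, the protease gene had medians of 182, 247 and 179 over the 3 stages, early to late. It was at 0.41 ± 0.14 for the first step (SE, adjusted p = 0.0158, higher in 7 of 8 females) and at -0.56 ± 0.13 for the second (SE, adjusted p = 0.0289, lower in 5 of 5). The basonuclin-like aug3.g3273 had medians of 149.9, 87.1 and 63.2 CPM, with log2 fold changes of -0.43 ± 0.15 (SE, adjusted p = 0.0146, lower in 6 of 8 females) and -0.26 ± 0.09 (SE, adjusted p = 0.114, lower in 5 of 5). Leaving out 1 female at a time, aug3.g12644 was called at the first step without Pt-ptc female 3 (0.31 to 0.48 over all females), and aug3.g3273 without gfp female 2 or Pt-hh female 2 (-0.53 to -0.34). Pt-RTP-B had medians of 7.14, 5.49 and 6.48 CPM and overlapped at all stages, with -0.22 ± 0.27 and 0.53 ± 0.23 (SE, adjusted p = 0.476 and 0.215). In all, 1 of the 5 genes was called higher at the first step (31.9% of 14721 gene models were, 65.8% in either direction) and 2 at the second (1.45% of 12689, 2.25% in either direction).

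**Figure D4:**
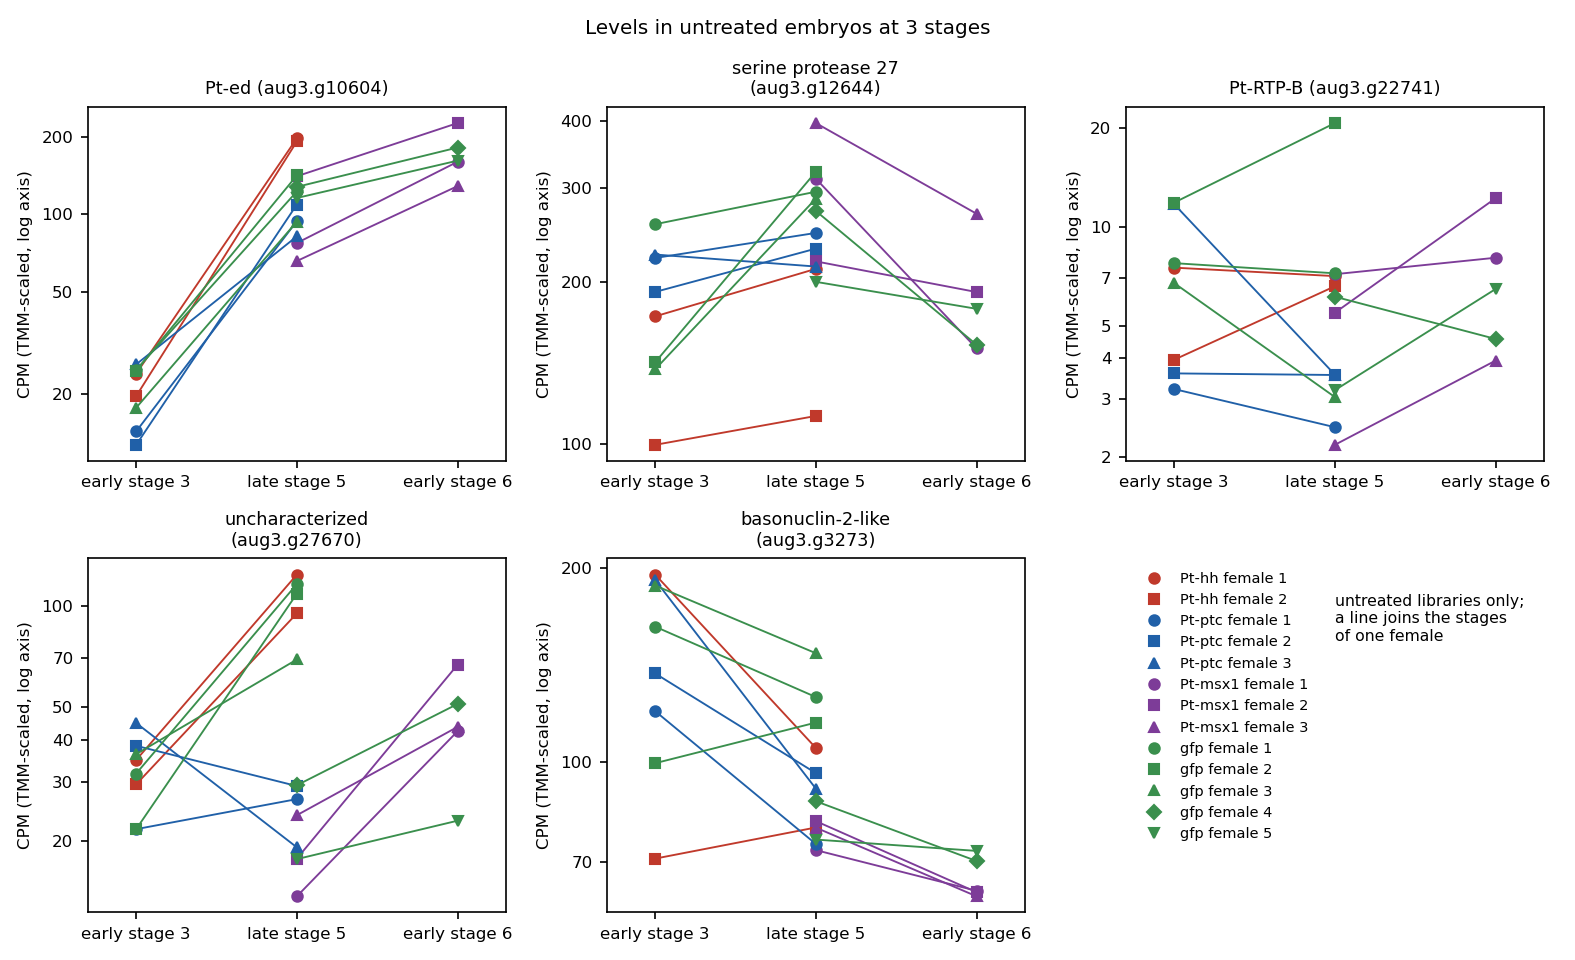
Levels of the 5 genes in untreated embryos at early stage 3, at late stage 5 and at early stage 6, in TMM-scaled CPM on a logarithmic axis (each point is 1 library, lines join libraries of the same female, 8, 13 and 5 libraries). Pt-ed climbs in every female, with medians of 21.8, 116 and 162 CPM, aug3.g27670 spreads between 13.7 and 124 CPM at late stage 5, and aug3.g3273 has medians of 149.9, 87.1 and 63.2 CPM.

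In the RPKM values the authors deposited, reads scaled to the length of the gene model and to the library, aug3.g12644 was the most abundant of the 5 in untreated late stage 5 embryos, with a median of 107 RPKM and a range of 40.3 to 177 over 13 libraries. Pt-ed (16.02, 8.95 to 22.1), Pt-RTP-B (13.1, 5.77 to 51.5), aug3.g3273 (10.6, 7.87 to 18.3) and aug3.g27670 (6.92, 2.74 to 26.5) followed in that order of medians, in RPKM, and each of these neighbours overlapped the next over the libraries. Pt-RTP-B has the shortest model. The lengths that the deposited values imply are 390 bases for Pt-RTP-B and between 2319 and 7746 bases for the other 4.

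Pt-RTP-B held a minor part of the reads of the pair. It took 5.69% of the reads of aug3.g407 and itself as the median of all 68 libraries, with a range of 2.56 to 13.99%. Its share was 3.45 to 10.1% in the libraries labelled Pt-ptc pRNAi at late stage 5, against 3.50 to 4.67% in the untreated ones, on counts of 1 to 12 reads in the pRNAi libraries. In untreated embryos aug3.g407 was higher at early stage 6 than at late stage 5, by 0.68 on the log2 scale (adjusted p = 0.00358), while Pt-RTP-B, at 0.53, was not called.

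Over the 42 pRNAi libraries, each taken as a log2 ratio to the untreated library of the same female and stage, the profile nearest to that of the protease gene was that of Pt-ci, with a root mean square difference of 0.31 among 9729 gene models compared, where the ratios of aug3.g12644 themselves had a root mean square of 0.81. Pt-ci was also nearest to Pt-ed (0.44), followed by aug3.g3273 (0.44) and aug3.g18939, annotated as the extracellular sulfatase Sulf-1 (0.46). For aug3.g3273 the order was Pt-ed (0.44), Pt-ci (0.47) and aug3.g12644 (0.48). Pt-RTP-B lay nearest to Pt-AP2-A (0.67), aug3.g407 (0.75) and Pt-ed (0.79), and aug3.g27670 to Pt-RTP-B (0.85), Pt-AP2-A (0.89) and aug3.g407 (0.92). The late stage 5 ratios that chose the genes are part of every profile, the libraries of a female share their untreated library, and no test was made. The study classed Pt-ci and Pt-AP2-A, too, by their late stage 5 response in these libraries.

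Genes of like annotation were counted for comparison. By the words serine protease, serine proteinase or trypsin in the annotation, 53 gene models were listed, and descriptions of inhibitors were not left out. Of these, 13 other than aug3.g12644 were tested at late stage 5 in each experiment. After Pt-hh or Pt-ptc pRNAi 0 were called in edgeR's quasi-likelihood test (2 in each had an unadjusted p under 0.05). Over all gene models, 18.3% after Pt-hh and 14.9% after Pt-ptc pRNAi had an unadjusted p under 0.05. Of 175 gene models listed by words as immunoglobulin-domain adhesion proteins, 1 of 45 others was called after Pt-hh pRNAi. It was aug3.g21455, annotated as Down syndrome cell adhesion molecule-like (higher by 0.78 ± 0.14 on the log2 scale, SE, adjusted p = 0.00462). An unadjusted p under 0.05 was found for 14 of the 45, against 18.3% of all gene models. After Pt-ptc pRNAi 0 of 40 were called, and 4 had an unadjusted p under 0.05, against 14.9% of all gene models. In untreated embryos 62 of 101 of these adhesion gene models were called lower and 13 higher at late stage 5 than at early stage 3, whereas Pt-ed was called higher. Over all gene models 33.9% were called lower and 31.9% higher at that step.

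**Figure D5:**
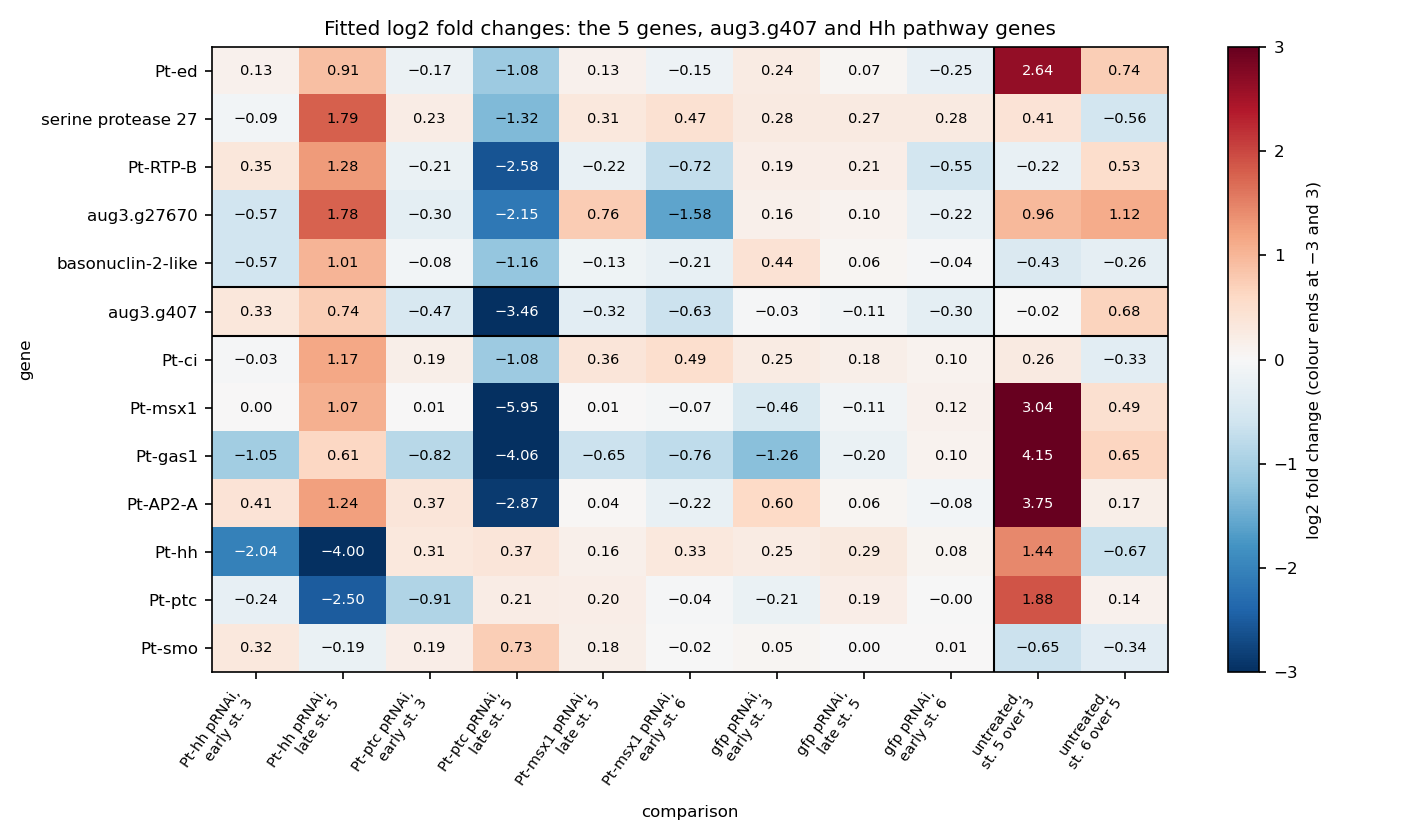
Fitted log2 fold changes of the 5 genes, of aug3.g407 and of Hedgehog pathway genes (rows) in 9 comparisons of pRNAi against untreated libraries and 2 between stages of untreated embryos (columns), in colour with the value in each cell. The 5 genes are positive after Pt-hh pRNAi at late stage 5 (0.91 to 1.79) and negative after Pt-ptc pRNAi (-2.58 to -1.08), and in the gfp columns they stay between -0.55 and 0.44.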

How the data were processed

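Poly(A) RNA of pooled embryos was sequenced in single-end, strand-specific MiSeq runs. Per the study's methods, the authors used CLC Genomics Workbench to trim reads, BLAT to map them to the assembly Ptep_1.0, and then filtered alignments for coverage, identity and uniqueness and counted them by strand on AUGUSTUS gene models (aug3) with htseq-count 0.5.4p5 (union). In the deposited count table, values are whole reads per gene model without normalization. The deposited RPKM values were made by the authors from these counts and were used only to order levels between genes. The deposited tables of the authors' comparisons hold log2 fold changes and FDR values and were not used. Another 7 labelled libraries, of stage 7 gfp embryos, were not analysed here. Poly(A) RNA was purified with either of 2 kits, which the labels do not give per library.

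Every gene model that reached 1 CPM in any library of a fit was tested in edgeR 4.0.16 (R 4.3.3) with TMM scaling, the quasi-likelihood F test, the female as a block, Benjamini-Hochberg adjustment over all gene models tested and a threshold of 0.01. Standard errors were computed from the F statistic. Untreated and pRNAi libraries of a number come from the same female by the labels. Across genes, the deviations of same-female libraries from their group means correlated at 0.26 to 0.78. Egg sacs of 1 female were separate libraries in the fit but share a mother, and with 2 Pt-hh females p-values rest partly on the spread between egg sacs. Alternatives were DESeq2 1.42.0, edgeR's likelihood ratio test, RLE factors, filterByExpr, no low-count filter, no block, the pRNAi libraries of a female summed, windows of egg sac days, subsets of gfp females, a threshold of 0.05 and each female left out. The windows of days 13 to 18 and 19 to 22 and the fits without the identical libraries were chosen after seeing the data. The edgeR script was tested on simulated data with changed genes.

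The members and lists were chosen with earlier results of these data known. Named genes are the 5, the partner aug3.g407, the 3 gene models of nearest profile to each (log2 CPM with a prior count of 2, mean of at least 5 CPM), pathway and regional genes named in the study, and called genes of 2 families found by words in the annotation.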

Additional observations from a re-analysis of the deposited data

Results flagged for a closer look

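Among 35 groups of 4 to 10 libraries of the 5 genes, 3 had a library far from the others, and chance flags about 1 in 20 such groups. Pt-RTP-B was at 15.15 CPM in the gfp pRNAi embryos of female 1 from day 17 at early stage 3, where the other 5 libraries lay at 8.06 to 10.3 CPM. It was at 20.72 CPM in the untreated late stage 5 embryos of gfp female 2, where the other 4 lay at 3.04 to 7.24 CPM, and the pRNAi libraries of that female were also high, at 14.95 and 16.9 CPM. The gene aug3.g27670 was at 421.8 CPM in the Pt-hh pRNAi embryos of female 2 from day 18 at late stage 5, where the other 3 lay at 349 to 358 CPM.

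In 3 cases every library of 1 stage lay on one side of its untreated control and every library of the other stage on the other side. In Pt-hh pRNAi embryos, the late stage 5 log2 fold change exceeded the early stage 3 one by 2.35 for aug3.g27670 and by 1.58 for aug3.g3273, higher in 4 of 4 libraries at late stage 5 and lower in 4 of 4 at early stage 3. For aug3.g12644 the difference after Pt-ptc pRNAi was -1.56, lower in 6 of 6 libraries at late stage 5 and higher in 6 of 6 at early stage 3. In gfp females aug3.g12644 was also higher at early stage 3, in 6 of 6 libraries. These differences between stages were not tested, since the late stage 5 values chose the genes.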

How the results depend on the processing

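Without the block for the female, 2 genes were called between late stage 5 and early stage 3 (1 with it) and 0 between early stage 6 and late stage 5 (2 with it), aug3.g27670 turned to 0.027 in gfp embryos of early stage 6, and aug3.g12644 turned to -0.052 in the Pt-msx1 response minus the gfp response at late stage 5. It changed no other call. Between late stage 5 and early stage 3, 2 genes were called with RLE factors, with DESeq2 and in gfp females alone, 3 without the low-count filter, and 4 with the likelihood ratio test and at a threshold of 0.05. Over all gene models, 4476 higher and 5230 lower of 14721 were called with RLE factors. In gfp females alone 3293 and 3509 of 13837 were, and without the filter 4871 and 5031 of 21946. Between early stage 6 and late stage 5, aug3.g12644 was also called with DESeq2, with the likelihood ratio test and without the filter, 3 genes in place of 2. Without the filter 491 higher and 318 lower of 19819 gene models were called at that step. At early stage 6 after Pt-msx1 pRNAi, DESeq2 and the likelihood ratio test each called 1. The stage difference after Pt-msx1 pRNAi had 1 call without the filter and 1 with DESeq2, and the Pt-hh response minus the gfp response had 1 without the filter. Over all gene models these fits without the filter called, in that order, 0 higher and 1 lower of 20016, and 35 higher and 30 lower of 22281. Leaving out 1 female at a time, calls ranged from 0 to 1 after Pt-msx1 pRNAi at late stage 5, from 1 to 3 between late stage 5 and early stage 3 and from 0 to 2 between early stage 6 and late stage 5.

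Values of either sign belonged to log2 fold changes that were not called. With days 18 to 22 and 19 to 22 only, aug3.g12644 after Pt-hh pRNAi at early stage 3 was at 0.042 and 0.128. At late stage 5 in gfp females, Pt-RTP-B was at -0.066 in females 4 and 5 alone, aug3.g27670 at -0.204 with days 13 to 17 and aug3.g3273 at -0.003 with days 18 to 22. Of the differences from the gfp response, Pt-hh at early stage 3 had Pt-ed at 0.087 with days 13 to 18 and Pt-RTP-B at -0.534 and -0.198 with days 13 to 17 and 13 to 18, Pt-ptc had aug3.g12644 at 0.006 with days 13 to 17, and Pt-msx1 at late stage 5 had aug3.g12644 at -0.146 with gfp females 4 and 5. The value of -0.534 rests on a single Pt-hh pRNAi library, that of female 1 from day 16.

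Leaving out 1 female at a time gave ranges across 0 for Pt-ed (-0.15 to 0.43) and aug3.g12644 (-0.27 to 0.091) after Pt-hh pRNAi at early stage 3, for Pt-ed (-0.49 to 0.24) and aug3.g3273 (-0.28 to 0.25) after Pt-ptc pRNAi at that stage, for Pt-ed (-0.008 to 0.30) and Pt-RTP-B (-0.69 to 0.34) after Pt-msx1 pRNAi at late stage 5, and in gfp females for Pt-RTP-B at early stage 3 (-0.011 to 0.43) and, at late stage 5, for Pt-RTP-B (-0.024 to 0.46), aug3.g27670 (-0.024 to 0.25) and aug3.g3273 (-0.007 to 0.10). For differences from the gfp response the ranges were -0.41 to 0.20 for Pt-ed and -0.17 to 0.57 for Pt-RTP-B (Pt-hh, early stage 3), -0.72 to 0.009 for Pt-ed and -0.12 to 0.016 for aug3.g12644 (Pt-ptc), -0.071 to 0.24 for Pt-ed, -0.17 to 0.21 for aug3.g12644 and -0.92 to 0.14 for Pt-RTP-B (Pt-msx1, late stage 5), and -0.086 to 0.22 for Pt-ed and -0.96 to 0.81 for Pt-RTP-B (Pt-msx1, early stage 6). The stage difference after Pt-msx1 pRNAi ranged from -0.16 to 0.04 for aug3.g3273. The cause of these changes was not tested.

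At late stage 5 the median of the 5 genes was 1.11 to 1.44 after Pt-hh pRNAi and -1.36 to -1.27 after Pt-ptc pRNAi with 1 female left out. Some fits were not run, for want of residual degrees of freedom. They were those of Pt-hh pRNAi against untreated with days 13 to 17, and the gfp fits of early stage 6 with a female left out or without the identical libraries. When egg sacs of the same mother were added up, the calls over all gene models fell in some comparisons and rose in another. At late stage 5 they fell to 75 higher after Pt-hh pRNAi and 47 lower after Pt-ptc pRNAi (287 and 87 with separate libraries). They also fell to 4 in gfp females at late stage 5 (37) and to 0 after Pt-ptc pRNAi at early stage 3 (18). In gfp females at early stage 3 they rose to 93 higher and 146 lower (70 and 109 with separate libraries). Depth limits Pt-RTP-B most, at 1 to 240 reads a library.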

Other observations

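In untreated late stage 5 embryos, aug3.g27670 spread widely between females. It was at 124 and 95.0 CPM in the 2 Pt-hh females and at 116, 109 and 69.3 CPM in gfp females 1 to 3. It was at 29.3 and 17.6 CPM in gfp females 4 and 5, which, like the Pt-msx1 females, gave late stage 5 and early stage 6 embryos, at 26.6, 29.1 and 19.1 CPM in the Pt-ptc females and at 13.7, 17.7 and 23.8 CPM in the Pt-msx1 females. Pt-msx1 was at 197 and 256 CPM in the untreated Pt-hh females, 234, 201 and 203 CPM in gfp females 1 to 3, 127 and 145 CPM in gfp females 4 and 5, 147, 100.4 and 111 CPM in the Pt-ptc females and 93.1, 133 and 78.7 CPM in the Pt-msx1 females. These are embryos of the same stage label before any injection, so the level of aug3.g27670 in a comparison depends on which females it holds, and no comparison here set untreated females of different dsRNAs against each other.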
